A study of Mus musculus with 6 samples.

Results

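Syndecans and glypicans are the membrane-bound heparan sulfate proteoglycans of the cell surface, and their transcripts were compared between stretched and unstretched mouse myoblasts. The members were the rows of the deposited table whose symbol was Sdc1, Sdc2, Sdc3, Sdc4, Gpc1, Gpc2, Gpc3, Gpc4 or Gpc6, which gave 9 of the 22375 rows, 4 syndecans and 5 glypicans. The cells were C2C12, an established mouse line of myoblasts, cells that can fuse and form muscle fibers, and no genetic change is named for either group. The CON group held 3 libraries of cells that were not stretched, and the 4H group held 3 libraries of cells under cyclic stretch at 15% tension for 4 h. The comparison asks what mechanical load does to a muscle precursor, as a culture model of the stretched diaphragm. It covers 1 cell line and 1 time point, and nothing states that the replicates came from separate cultures, so p values measure the spread between these libraries, which may be technical.

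The core protein of a syndecan spans the membrane once and carries heparan sulfate chains outside the cell, while a short cytoplasmic tail binds adaptor and cytoskeletal proteins. Syndecan-4 is a component of focal adhesions and acts there together with integrins. Glypicans have no cytoplasmic tail and are held in the outer leaflet of the membrane by a glycosylphosphatidylinositol anchor. The heparan sulfate of both families holds growth factors such as FGF2 and HGF near their receptors, and syndecan-3 and syndecan-4 are known as surface proteins of the muscle satellite cell.

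The 4 syndecans share the end of the coding sequence that encodes the cytoplasmic tail. These ends are shown because they are what sets the family apart from the glypicans. Each run goes from the codons next to the membrane to the last coding base before the stop codon, 5′ to 3′, from GENCODE M21 (GRCm38), and the capitals mark the 12 bases that encode the C-terminal motif bound by PDZ domain proteins such as syntenin.
Sdc1: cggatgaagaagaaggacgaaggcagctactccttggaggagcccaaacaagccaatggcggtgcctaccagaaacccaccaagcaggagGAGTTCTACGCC
Sdc2: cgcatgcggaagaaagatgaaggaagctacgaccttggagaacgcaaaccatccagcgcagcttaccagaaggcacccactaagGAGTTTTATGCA
Sdc3: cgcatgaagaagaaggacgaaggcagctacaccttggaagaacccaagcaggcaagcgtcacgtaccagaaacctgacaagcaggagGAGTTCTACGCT
Sdc4: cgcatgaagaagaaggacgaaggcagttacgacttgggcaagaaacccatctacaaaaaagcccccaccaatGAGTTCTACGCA
In the first 30 bases of these runs Sdc1 and Sdc3 were identical at 29 positions, Sdc3 and Sdc4 at 29, and Sdc1 and Sdc4 at 28, whereas Sdc2 matched the other 3 at 24 to 25. The final 12 bases were identical at 9 to 11 positions in every pair. The middle of the tail differed in length, so that the runs were 102 bases in Sdc1, 96 in Sdc2, 99 in Sdc3 and 84 in Sdc4. No 75-base stretch of the longest transcript of a syndecan occurred in another syndecan or glypican. The whole coding sequences had 933 bases in Sdc1, 606 in Sdc2, 1326 in Sdc3 and 594 in Sdc4.

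All 4 syndecans were higher in the 4H group, by 1.25 to 1.53 times, and all 3 glypicans that could be tested were lower, at 0.687 to 0.882 times the CON mean. Levels are given as FPKM, fragments counted per length of transcript and per mapped fragments of the library, which can be compared between genes. For the comparison, limma was fitted to log2(FPKM + 0.5) in 11593 genes whose mean reached 0.5 FPKM, with Benjamini-Hochberg adjustment, and a gene was past the test at an adjusted p of at most 0.05. Of all genes tested, 22.6% were past the test and higher in the 4H group and 24.1% past it and lower. The balance of these calls differed between settings, and the cause was not tested. Of the calls, 48.4% were higher here, 57.4% with libraries rescaled to TPM and 44.3% after correction for GC content and length. This share was 53.3% with no filter on low values, 50.6% with median-of-ratios scaling and 47.7% with quantile normalization. Every 4H library lay above every CON library in 27.5% of all genes tested and below in 29.2%, so that a single member past the test is common in these data. The median log2 fold change was 0.58 over the 4 syndecans and -0.28 over the 3 tested glypicans, against -0.01 over all genes tested. None of the 7 reached an absolute log2 fold change of 1, the threshold for differential expression, which 3.88% of all genes passed. In bulk RNA a lower level in each cell and a smaller number of cells that express the gene cannot be told apart.

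**Figure D1:**
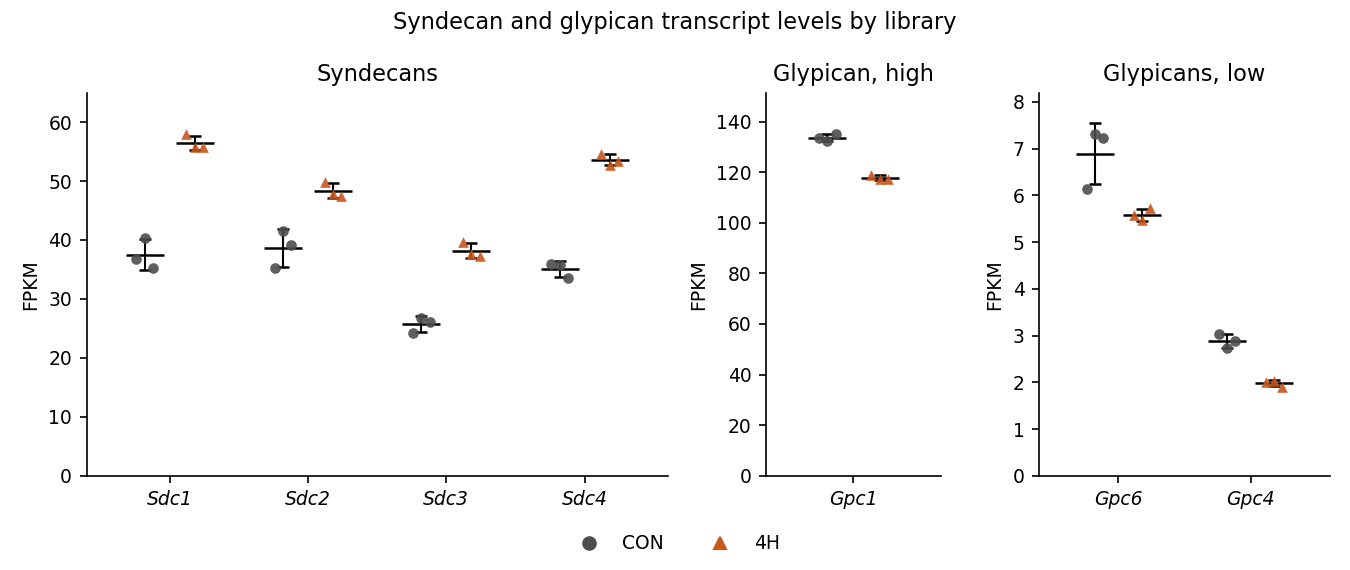
FPKM (linear axis from 0) of the 4 syndecans, of Gpc1, and of Gpc6 and Gpc4 in the 3 CON (circles) and 3 4H (triangles) libraries, with the group mean and SD as bars. The 4H libraries lie above the CON libraries for each syndecan and below them for each of these glypicans, with different axis ranges in the 3 panels.

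Sdc4 (ENSMUSG00000017009), the focal adhesion syndecan, lies at chr2:164424247-164443887 on the minus strand. It was at 35.9, 35.7 and 33.5 FPKM in CON replicates 1, 2 and 3 and at 54.6, 52.8 and 53.4 FPKM in 4H replicates 1, 2 and 3. All 4H libraries stood well above all CON libraries, and the libraries of each group lay close together. The mean rose from 35.0 ± 1.31 to 53.6 ± 0.911 FPKM (SD, n = 3 each), or 0.61 on the log2 scale (standard error 0.04, limma adjusted p = 7.48e-06), the largest change of the 7 with all libraries. Without CON replicate 2 Sdc1, at 0.64, exceeded Sdc4, at 0.62.

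Sdc1 (ENSMUSG00000020592), best known as a syndecan of epithelia and plasma cells, lies at chr12:8771323-8793715 on the plus strand. It was at 36.8, 40.4 and 35.3 FPKM in the CON libraries against 57.9, 55.8 and 55.8 FPKM in the 4H libraries. The spread was wider among the CON libraries, of which replicate 2 was the highest, and the groups did not overlap. The mean rose from 37.5 ± 2.63 to 56.5 ± 1.23 FPKM (SD, n = 3 each), or 0.59 on the log2 scale (standard error 0.05, limma adjusted p = 4.64e-05).

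Sdc3 (ENSMUSG00000025743), the syndecan of nerve and satellite cells, lies at chr4:130792537-130826319 on the plus strand. It was at 24.3, 26.8 and 26.1 FPKM in the CON libraries against 39.7, 37.6 and 37.3 FPKM in the 4H libraries. It was the lowest of the 4 syndecans in every library of both groups. The mean rose from 25.7 ± 1.31 to 38.2 ± 1.28 FPKM (SD, n = 3 each), or 0.56 on the log2 scale (standard error 0.05, limma adjusted p = 4.13e-05). Gm12970 and Gm26716 on the other strand overlap its exons, and 5.47% of its 75-base stretches occur in Gm26716.

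Sdc2 (ENSMUSG00000022261), the syndecan typical of mesenchymal cells, lies at chr15:32920723-33034935 on the plus strand. It was at 35.3, 41.6 and 39.2 FPKM in the CON libraries against 49.8, 47.8 and 47.4 FPKM in the 4H libraries. CON replicate 1 was the low library of its group, and the gap between the highest CON and the lowest 4H library was narrower than for the other 3. The mean rose from 38.7 ± 3.20 to 48.3 ± 1.29 FPKM (SD, n = 3 each), or 0.32 on the log2 scale (standard error 0.06, limma adjusted p = 0.00272).

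Gpc1 (ENSMUSG00000034220), a glypican known to hold FGF2 at the surface of myoblasts, lies at chr1:92831645-92860779 on the plus strand. It was at 133.6, 132.2 and 134.9 FPKM in the CON libraries against 119.0, 117.2 and 117.3 FPKM in the 4H libraries. It was the most abundant member in every library, and its values had little spread within a group. The mean fell by 11.8%, from 133.6 ± 1.34 to 117.8 ± 1.04 FPKM (SD, n = 3 each), or -0.18 on the log2 scale (standard error 0.03, limma adjusted p = 6.89e-04). Its exons overlap Ankmy1 on the other strand, and 22.01% of its 75-base stretches occur there, but Ankmy1 itself was at 0.120 to 0.351 FPKM.

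Gpc4 (ENSMUSG00000031119), a glypican that takes part in Wnt and FGF signaling, lies at chrX:52053021-52165252 on the minus strand. It was at 3.03, 2.74 and 2.88 FPKM in the CON libraries against 2.01, 2.03 and 1.90 FPKM in the 4H libraries. The groups were well apart at this low level. The mean fell from 2.88 ± 0.145 to 1.98 ± 0.0681 FPKM (SD, n = 3 each), or -0.45 on the log2 scale (standard error 0.09, limma adjusted p = 0.00367), the largest fall among the glypicans.

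Gpc6 (ENSMUSG00000058571), a glypican with a role in Hedgehog signaling in growing bone, spans chr14:116925315-117976544 on the plus strand. It was at 6.13, 7.30 and 7.23 FPKM in the CON libraries against 5.58, 5.46 and 5.72 FPKM in the 4H libraries. CON replicate 1 lay close to the 4H libraries, though the groups did not overlap. The mean fell from 6.89 ± 0.655 to 5.59 ± 0.129 FPKM (SD, n = 3 each), or -0.28 on the log2 scale (standard error 0.08, limma adjusted p = 0.0227). This call depended on single libraries, since the adjusted p from limma was 0.0756 without CON replicate 2, 0.0777 without CON replicate 3, 0.0524 without 4H replicate 1 and 0.0625 without 4H replicate 2.

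Gpc2 (ENSMUSG00000029510, chr5:138273655-138280005, minus strand), a glypican of developing neurons, and Gpc3 (ENSMUSG00000055653, chrX:52272426-52613950, minus strand), a glypican that restrains Hedgehog signaling and body growth, were listed at 0 in all 6 libraries and were not tested. Gpc5, the glypican that is no member here, was listed at 0 as well. Gpc3 and Gpc4 are neighbors on chromosome X, and 1 of the pair was measured and the other listed at 0. Of the 75-base stretches of Gpc2, 50.1% also occur in Gm43720 on the same strand, which was at 0.0776 to 0.121 FPKM, so a low level of Gpc2 could have been counted there.

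For each of the 7 tested genes an exact permutation test (two-sided, 3 CON against 3 4H libraries) gave p = 0.1, the smallest it allows. The 7 genes kept their direction under each of 17 alternative settings, and all but Gpc6 also stayed past the test under each. Sdc1 ranged from 0.55 to 0.64, Sdc2 from 0.26 to 0.37, Sdc3 from 0.50 to 0.60 and Sdc4 from 0.58 to 0.65 on the log2 scale. Gpc1 ranged from -0.23 to -0.14 and Gpc4 from -0.54 to -0.38.

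**Figure D2:**
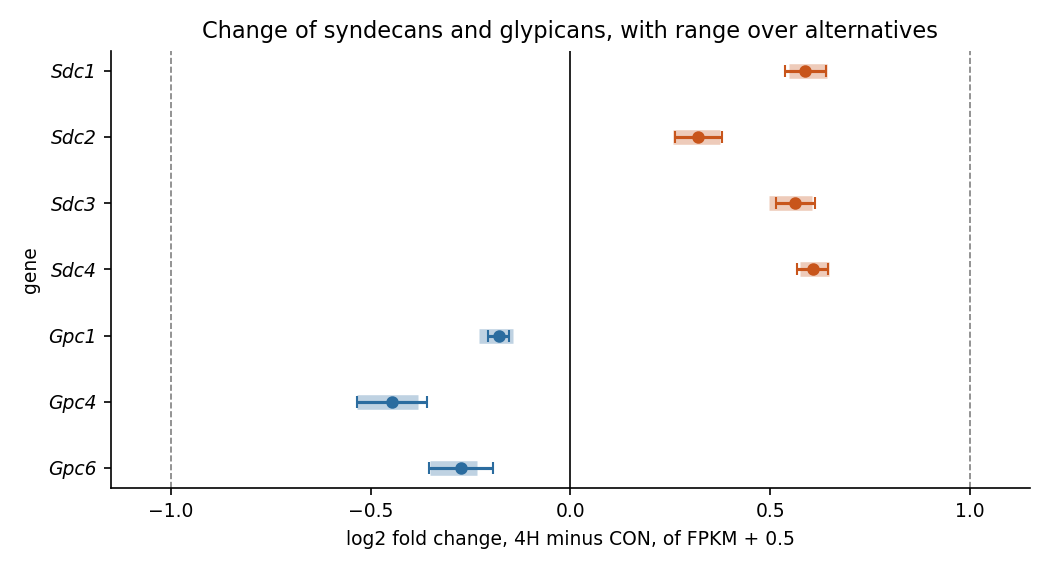
Log2 fold change (4H minus CON, of FPKM + 0.5) of the 7 tested syndecans and glypicans, as points with bars of 1 standard error, and the range over 17 alternative settings as a shaded band. The solid line marks 0 and the dashed lines mark the threshold of 1, and the syndecans lie right of 0 and the glypicans left of it, all inside the dashed lines.

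The order of the levels differed between the groups among the syndecans. In the CON group Gpc1 stood first, followed by Sdc2, Sdc1, Sdc4, Sdc3, Gpc6 and Gpc4. Sdc2 was above Sdc1 in 2 of the 3 CON libraries and their ranges overlapped, as did those of Sdc1 and Sdc4, although Sdc1 was above Sdc4 in all 3 CON libraries. In the 4H group the order was Gpc1, Sdc1, Sdc4, Sdc2, Sdc3, Gpc6 and Gpc4, and no 2 neighbors overlapped. Sdc2 was below both Sdc1 and Sdc4 in every 4H library, and also in CON replicate 1.

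The summed FPKM of the 4 syndecans was 132.2, 144.5 and 134.1 in the CON libraries and 202.0, 194.0 and 193.9 in the 4H libraries. That of the glypicans was 142.7, 142.3 and 145.0 in the CON libraries and 126.6, 124.7 and 124.9 in the 4H libraries. Both families were thus near the same sum in unstretched cells, and the syndecan sum was the higher in each stretched library. The ratio of syndecan to glypican FPKM was 0.955 ± 0.0520 in the CON group and 1.57 ± 0.0237 in the 4H group (mean ± SD of 3 libraries), which is a description without a test. Within the syndecan sum, the share of Sdc2 was 26.7%, 28.8% and 29.3% in the CON libraries and 24.7%, 24.6% and 24.5% in the 4H libraries, with no overlap. The share of Sdc1 did not overlap either, at 26.3% to 27.9% and 28.7% to 28.8%. The shares of Sdc3, with means of 18.8% and 19.4%, and of Sdc4, with means of 25.6% and 27.3%, overlapped between the groups. Among the glypicans, Gpc1 made up 92.9% to 93.6% of the sum in the CON libraries and 93.9% to 94.0% in the 4H libraries, and Gpc4 1.93% to 2.12% and 1.52% to 1.63%, without overlap, while the share of Gpc6 overlapped, with means of 4.80% and 4.46%. The shares within a family are tied to one another and were not tested. No background rate of overlap was computed for shares, so their non-overlap is a description.

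**Figure D3:**
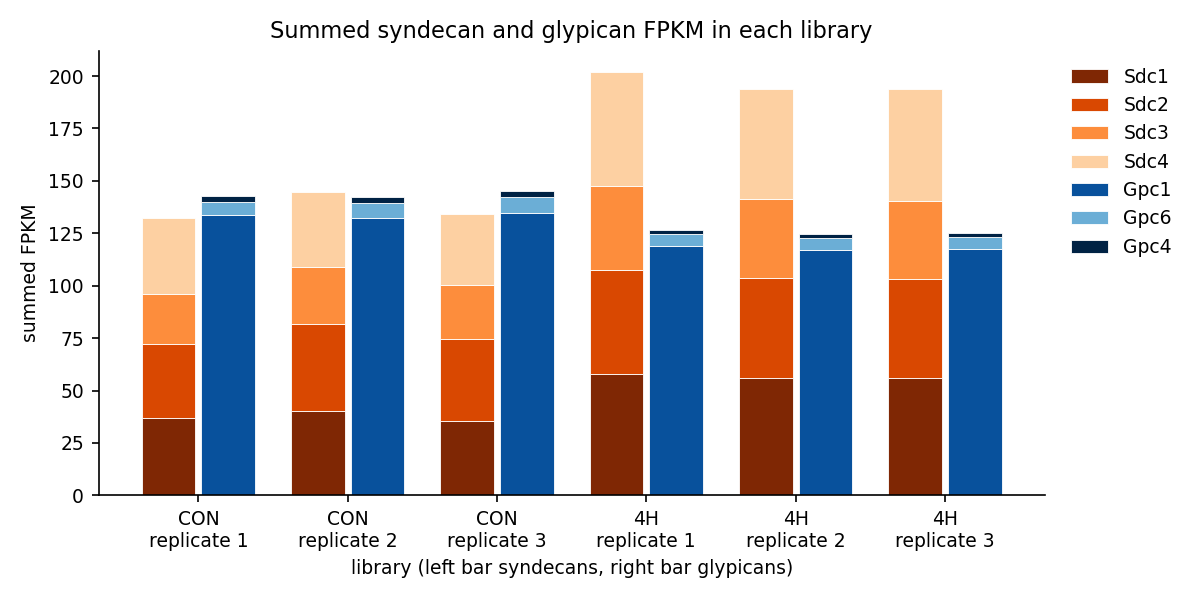
Summed FPKM of the syndecans (left bar, orange shades) and of the glypicans (right bar, blue shades) in each of the 3 CON and 3 4H libraries, stacked by gene on a linear axis from 0. The 2 bars of a CON library are of similar height, and in each 4H library the syndecan bar, between 193.9 and 202.0 FPKM, is the taller.

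By the measure of likeness chosen for this purpose, the Pearson correlation of log2(FPKM + 0.5) over the 6 libraries, the genes closest to Sdc4 were Gpd2 (r = 0.99971), which encodes the mitochondrial glycerol-3-phosphate dehydrogenase, Car13 (r = 0.99961), a carbonic anhydrase, and Pcolce2 (r = 0.99888), an enhancer of procollagen C-proteinase. Gpd2 was at 33.8, 33.4 and 31.8 FPKM in the CON libraries against 50.5, 49.5 and 49.6 FPKM in the 4H libraries. A correlation of at least 0.99 was reached by 277 of 11592 genes. The 6 points fall into 2 groups that differ, so these values are a description.

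The stretches just upstream of the RefSeq starts of Sdc1, Sdc3 and Sdc4 are shown because these 3 genes rose by similar factors. They are the part of each RefSeq promoter window of GRCm38.p6 that comes before the first annotated exon inside that window, 5′ to 3′ on the strand of the gene, and the capitals mark the GC box, GGGCGG on either strand, the letters bound by the Sp1 family. They lie at chr12:8771146-8771322 for Sdc1, chr4:130792287-130792536 for Sdc3 and chr2:164443189-164443438 for Sdc4. The Sdc4 stretch comes before the first exon of its longest transcript but lies within the annotated span of the gene, in the first intron of another GENCODE transcript that starts farther upstream.
Sdc1: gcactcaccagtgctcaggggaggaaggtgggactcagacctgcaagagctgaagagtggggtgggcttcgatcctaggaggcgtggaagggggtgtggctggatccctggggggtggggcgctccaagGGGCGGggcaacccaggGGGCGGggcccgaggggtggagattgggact
Sdc3: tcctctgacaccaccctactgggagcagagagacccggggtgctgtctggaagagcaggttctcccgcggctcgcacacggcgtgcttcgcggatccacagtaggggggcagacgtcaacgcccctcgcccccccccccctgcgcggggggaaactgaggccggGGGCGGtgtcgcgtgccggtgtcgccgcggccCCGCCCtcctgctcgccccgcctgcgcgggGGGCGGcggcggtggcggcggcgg
Sdc4: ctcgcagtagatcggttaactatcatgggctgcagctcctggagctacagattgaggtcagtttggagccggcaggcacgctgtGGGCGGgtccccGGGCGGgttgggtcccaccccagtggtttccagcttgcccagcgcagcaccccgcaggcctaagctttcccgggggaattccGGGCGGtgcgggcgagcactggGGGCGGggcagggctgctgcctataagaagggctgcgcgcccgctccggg
The full windows held 3 GC boxes in Sdc1, 3 in Sdc3 and 4 in Sdc4, and those of Gpc2, Gpc3 and Gpc4, the other members with a window, held 3, 4 and 1. At least 1 GC box was present in 35.7% of the 32851 promoter windows. The AP-1 letters TGANTCA were found in none of these 6 windows and in 7.8% of all, and the TEAD letters GGAATG were found once, in Gpc4, and in 14.7% of all, each searched on both strands. None of the 3 motifs contains another, and a match or its absence describes these letters alone. Sdc2, Gpc1 and Gpc6 had no window in the RefSeq table used.

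The machinery that builds, trims and reads heparan sulfate was followed in 9 lists of 88 genes, of which 68 could be tested. In all, 29 (42.6%) were past the test and higher in the 4H group, 14 (20.6%) past it and lower, and 25 did not pass, with a median log2 fold change of 0.06. Among all genes tested these shares were 22.6% and 24.1%, so the lower count is near the background. Cytoplasmic partners of syndecans and growth factors with their receptors held the largest counts of higher genes. The genes named in the plot of the 9 lists were taken by a rule, and every other gene of these lists was named after its values were seen. Of the 27 tested genes that make the chains, 7 (25.9%) were higher and 4 (14.8%) lower, the higher share being near that of all genes.

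The chain starts with a linkage tetrasaccharide, for which 1 of 5 tested genes was past the test, Xylt2, a xylosyltransferase that adds the first sugar, at 4.80 ± 0.302 and 5.61 ± 0.146 FPKM (limma adjusted p = 0.0441). This call was lost without any 1 of CON replicate 2 (adjusted p = 0.126), CON replicate 3 (0.103), 4H replicate 1 (0.1002), 4H replicate 2 (0.1105) and 4H replicate 3 (0.0677). It was lost as well with no filter (0.0687), a replicate block (0.0791), quantile normalization (0.0615) and correction for GC content and length (0.0685). Of the 5 polymerization genes, Extl1, an EXT-like glycosyltransferase, fell from 1.96 ± 0.380 to 0.414 ± 0.0216 FPKM, or -1.42 on the log2 scale (standard error 0.14, limma adjusted p = 1.02e-04). It was at 2.33, 1.57 and 1.97 FPKM in the CON libraries against 0.433, 0.391 and 0.417 FPKM in the 4H libraries. The 2 subunits of the chain polymerase moved in opposite directions. Ext1 rose from 10.5 ± 0.496 to 12.6 ± 0.324 FPKM (limma adjusted p = 0.00761), and Ext2 fell from 45.7 ± 0.751 to 38.1 ± 1.201 FPKM (6.42e-04). Extl3 rose from 17.8 ± 0.453 to 21.7 ± 0.379 FPKM (8.75e-04).

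Glce, the C5-epimerase that turns glucuronic into iduronic acid, was at 65.2, 65.0 and 66.1 FPKM in the CON libraries against 31.0, 31.3 and 29.7 FPKM in the 4H libraries. Each 4H library was below the lowest CON library by a wide margin. The log2 fold change was -1.08 (standard error 0.03, limma adjusted p = 2.09e-07). Of the 9 tested genes of sulfation and epimerization, 1 other was lower, Ndst4, and 1 higher, Ndst3, both N-deacetylase/N-sulfotransferases. Ndst4 was at 1.04 ± 0.157 and 0.572 ± 0.0847 FPKM (limma adjusted p = 0.0150, and 0.0553 without CON replicate 1). Ndst3 was at 3.64 ± 0.122 and 4.43 ± 0.168 FPKM (limma adjusted p = 0.0233), and its call was lost without any 1 of CON replicate 2 (0.0555), CON replicate 3 (0.0718), 4H replicate 1 (0.0713) and 4H replicate 3 (0.0609), and with a replicate block (0.0519). The most abundant sulfotransferase of the list, Ndst1, was at 40.9 ± 0.525 and 38.7 ± 0.355 FPKM and did not pass (limma adjusted p = 0.0779), but was lower with no filter (0.0479) and after correction for GC content and length (0.00438). Hs2st1, the 2-O-sulfotransferase, at 11.6 ± 0.345 and 12.7 ± 0.0236 FPKM, did not pass (limma adjusted p = 0.0555) but was higher with no filter (0.0495), no trend (0.0412), median-of-ratios scaling (0.0424) and TPM (0.0237). Hs3st1, a 3-O-sulfotransferase, did not pass with all libraries (limma adjusted p = 0.376) but was higher without CON replicate 2 (0.42 on the log2 scale, 0.0437). Of the 16 listed genes 7 were below the filter on low values, 3 of them at 0 in every library.

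Among the 8 genes that supply sugar nucleotides and sulfate, Ugdh rose most. It encodes the dehydrogenase that makes UDP-glucuronic acid, and it was at 82.4, 88.8 and 85.2 FPKM in the CON libraries against 155.9, 156.9 and 154.4 FPKM in the 4H libraries, or 0.86 on the log2 scale (standard error 0.03, limma adjusted p = 5.85e-07). Ugdh shares exon sequence with Gm43552 on its strand. Papss1, a synthase of the sulfate donor, rose from 35.6 ± 0.477 to 42.9 ± 1.85 FPKM (limma adjusted p = 0.00104). The third, the sulfate transporter gene Slc26a2, was at 5.14 ± 0.0666 and 6.03 ± 0.220 FPKM (limma adjusted p = 0.0272). Its call was lost with each library left out in turn (0.0502 to 0.0852), with a replicate block (0.0633) and after correction for GC content and length (0.0784). Uxs1, the UDP-xylose synthase gene, was at 37.7, 36.7 and 23.9 FPKM in the CON libraries against 27.1, 22.4 and 22.1 FPKM in the 4H libraries. CON replicate 3 lay within the 4H range, and Uxs1 did not pass with all libraries (limma adjusted p = 0.0664) but was past it and lower without that library (-0.64 on the log2 scale, 0.00154) and with a replicate block on all libraries (-0.43, 0.0219). Slc35d1, a transporter of nucleotide sugars, at 5.39 ± 0.170 and 6.15 ± 0.191 FPKM, did not pass (limma adjusted p = 0.0548) but was higher without a trend (0.0214), with median-of-ratios scaling (0.0466) and with TPM (0.0314).

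**Figure D4:**
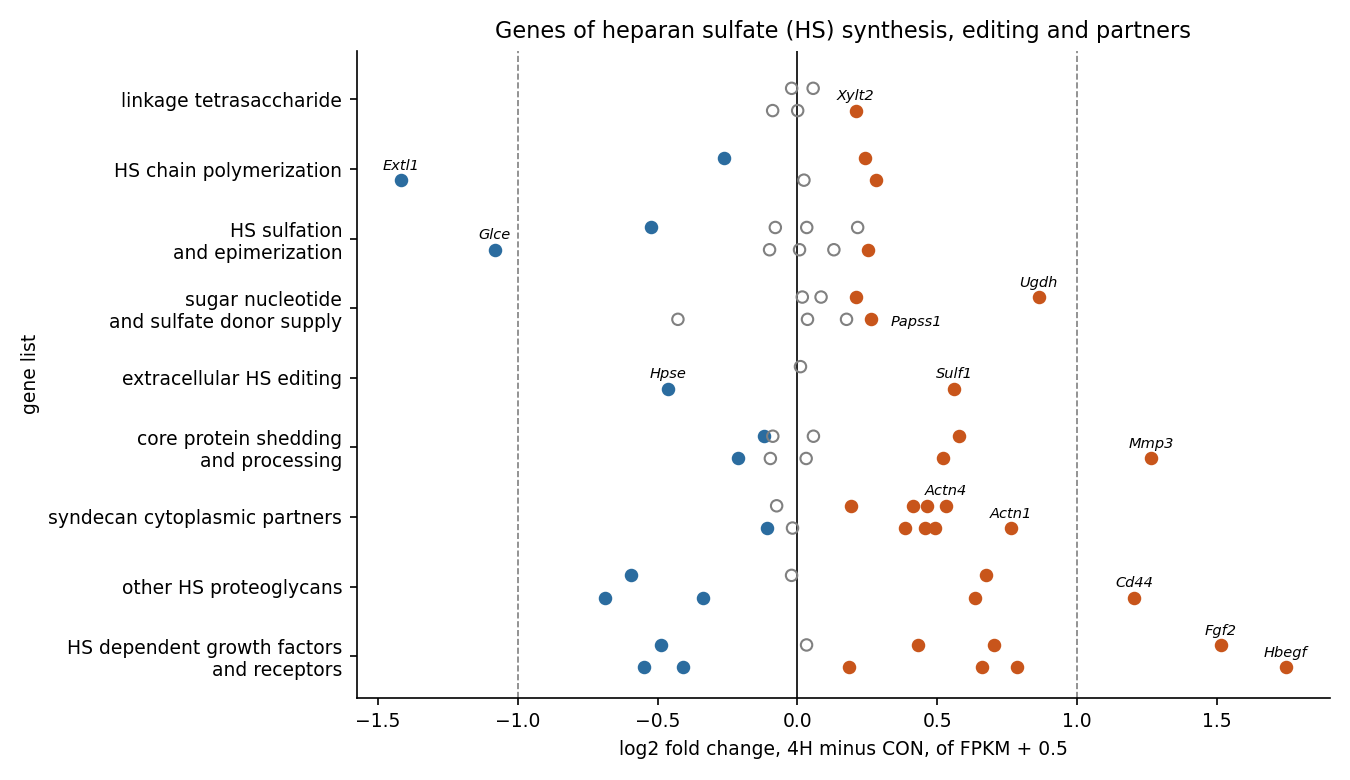
Log2 fold change (4H minus CON, of FPKM + 0.5) of the 68 tested genes of the 9 lists, 1 point per gene. Orange points were past the test and higher in the 4H group, blue points past it and lower, and open points did not pass, with dashed lines at the threshold of 1 in either direction and the names of the genes taken by the naming rule.

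Outside the cell, Sulf1, an endosulfatase that removes 6-O-sulfate from finished chains, rose from 4.44 ± 0.477 to 6.77 ± 0.326 FPKM, or 0.56 on the log2 scale (limma adjusted p = 0.00102). Hpse, the heparanase that cuts the chains, fell from 4.90 ± 0.0595 to 3.44 ± 0.428 FPKM, or -0.46 on the log2 scale (limma adjusted p = 0.00465). Sulf2 was at 3.42 ± 0.137 and 3.47 ± 0.485 FPKM and did not pass (limma adjusted p = 0.941).

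Of 9 tested genes that shed or process the core proteins, 3 were higher, 2 lower and 4 did not pass. Mmp3, the metalloproteinase stromelysin-1, was at 0.192, 0.315 and 0.161 FPKM in the CON libraries against 0.789, 1.52 and 1.49 FPKM in the 4H libraries. The groups did not overlap, at low levels in both, and the log2 fold change was 1.27 (standard error 0.20, limma adjusted p = 0.00131). This size depended on the pseudocount, at 2.06 with 0.1 and 0.87 with 1, the latter below the threshold for differential expression. Furin, a convertase that processes glypican cores, rose from 28.0 ± 0.608 to 42.1 ± 0.616 FPKM (limma adjusted p = 6.17e-06), and Adam17, a sheddase of syndecans, fell from 26.3 ± 0.250 to 22.6 ± 0.215 FPKM (0.00175). Notum, a secreted carboxylesterase, was at 1.45 ± 0.202 and 2.33 ± 0.648 FPKM (limma adjusted p = 0.0353), and its call was lost without any 1 of CON replicate 1 (0.0785), CON replicate 2 (0.106), 4H replicate 2 (0.0871) and 4H replicate 3 (0.0540), and with no filter (0.0694), a replicate block (0.0634) or quantile normalization (0.0866). Mmp2, a gelatinase, was at 62.0 ± 2.36 and 57.0 ± 1.60 FPKM (limma adjusted p = 0.0361), and its call was lost without any 1 of CON replicate 1 (0.0739), CON replicate 2 (0.108), 4H replicate 2 (0.0966) and 4H replicate 3 (0.103). Mmp2 was also not past the test with a replicate block (0.0545), limma without a trend (0.0857), TPM (0.129) or quantile normalization (0.0951). Mmp14 and Adam10, both abundant, were at 65.8 ± 2.11 and 67.2 ± 1.43 FPKM and at 32.3 ± 1.63 and 30.3 ± 2.47 FPKM and did not pass.

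Of 11 tested partners of the syndecan tail, 8 were higher, 1 lower and 2 did not pass, with a median log2 fold change of 0.41. The genes of the α-actinins, which crosslink actin filaments, rose most. Actn1 was at 109.5, 108.8 and 112.8 FPKM in the CON libraries against 188.2, 190.7 and 183.8 FPKM in the 4H libraries (log2 fold change 0.76, limma adjusted p = 4.90e-07). Actn4 rose from 136.7 ± 2.01 to 198.1 ± 10.9 FPKM (log2 fold change 0.53, limma adjusted p = 2.15e-05). Both overlap a gene on the other strand.

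Prkca, the kinase that syndecan-4 binds and activates, rose from 7.97 ± 0.463 to 11.1 ± 0.446 FPKM (limma adjusted p = 5.87e-04). Ezr, Cttn, Src and Pdcd6ip, which encode ezrin, cortactin, Src and ALIX, rose by 1.41, 1.38, 1.34 and 1.31 times. The call of Tiam1, a Rac activator, at 6.81 ± 0.162 and 7.86 ± 0.267 FPKM (limma adjusted p = 0.0281), was lost without any 1 of CON replicate 2 (0.0653), CON replicate 3 (0.0820), 4H replicate 2 (0.0888) and 4H replicate 3 (0.0559), with a replicate block (0.0623), and after correction for GC content and length (0.124). Sdcbp, which encodes syntenin, the adaptor that binds the C-terminal motif shown in capitals above, was at 104.9, 114.1 and 114.2 FPKM in the CON libraries against 112.1, 94.1 and 111.1 FPKM in the 4H libraries. These ranges overlapped, and Sdcbp did not pass (limma adjusted p = 0.415). Cask, another PDZ protein that binds this motif, was at 13.0 ± 0.499 and 12.9 ± 0.289 FPKM and did not pass either (limma adjusted p = 0.806). The call of the 1 lower partner, Gipc1, at 90.2 ± 0.532 and 83.7 ± 3.99 FPKM (limma adjusted p = 0.0493), was lost without any 1 of CON replicate 1 (0.112), CON replicate 2 (0.103), CON replicate 3 (0.0946) and 4H replicate 3 (0.122). It was lost too with no filter (0.0676), a replicate block (0.0602), no trend (0.116), array weights (0.0504), TPM (0.169), median-of-ratios scaling (0.0613) and quantile normalization (0.0881), so 11 of 17 settings gave no call.

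Of the other heparan sulfate proteoglycans, 3 of 7 tested were higher, 3 lower and 1 did not pass. Cd44, an adhesion receptor that carries heparan sulfate in some splice forms, was at 99.98, 104.5 and 99.5 FPKM in the CON libraries against 238.8, 224.1 and 239.9 FPKM in the 4H libraries. Its lowest 4H library was far above its highest CON library, and the log2 fold change was 1.21 (standard error 0.04, limma adjusted p = 1.66e-07). Nrp1, the neuropilin-1 gene, rose from 10.1 ± 0.196 to 16.5 ± 0.394 FPKM, and Col18a1, the gene of a basement membrane collagen, from 33.7 ± 0.557 to 52.7 ± 1.4998 FPKM. Agrn, whose product organizes the neuromuscular junction, fell from 40.5 ± 2.53 to 25.0 ± 2.69 FPKM, Spock2 from 3.20 ± 0.294 to 1.95 ± 0.0258 FPKM, and Tgfbr3, the betaglycan gene, from 5.87 ± 0.252 to 4.54 ± 0.216 FPKM. Hspg2, the perlecan gene, was at 57.1 ± 0.704 and 56.2 ± 0.824 FPKM and did not pass (limma adjusted p = 0.610), but was lower after correction for GC content and length (-0.10 on the log2 scale, 0.0249).

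Growth factors that bind heparan sulfate, with their receptors, gave 7 higher, 3 lower and 1 not past the test of 11 tested, with a median log2 fold change of 0.43. Hbegf, an EGF receptor ligand, was at 10.1, 8.87 and 9.62 FPKM in the CON libraries against 34.3, 31.5 and 33.6 FPKM in the 4H libraries, or 1.75 on the log2 scale (standard error 0.06, limma adjusted p = 3.08e-07). Fgf2 was at 2.53, 1.80 and 2.95 FPKM in the CON libraries against 8.06, 7.51 and 7.65 FPKM in the 4H libraries, or 1.51 on the log2 scale (standard error 0.14, limma adjusted p = 6.08e-05). For both genes the 4H libraries were far above the CON libraries, while Gpc1, which can hold FGF2, was lower. Fgf2 overlaps Gm43439 on its strand and Nudt6 on the other. Other genes past the test also overlap a gene on their own strand, namely Glce (Mir5133), Nrp1 (Mir1903), Tgfbr3 (Gm43422), Hgf (Gm43489) and Fgfr2 (Ctbp2). Exons of Furin, Notum, Adam17, Prkca, Ezr, Fgf10, Fgfr1 and Pdgfa overlap a gene on the other strand, as do those of Sdcbp.

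Hgf, the ligand that activates satellite cells, rose from 8.46 ± 0.868 to 14.1 ± 1.96 FPKM and its receptor gene Met from 22.4 ± 1.26 to 30.5 ± 1.85 FPKM. Pdgfa rose from 13.5 ± 0.774 to 23.7 ± 1.72 FPKM and Fgfrl1, a receptor without a kinase domain, from 8.12 ± 0.959 to 13.1 ± 1.60 FPKM. The call of Fgfr1, a main FGF receptor of myoblasts, at 45.2 ± 1.79 and 51.5 ± 3.50 FPKM (limma adjusted p = 0.0238), was lost with CON replicate 1 (0.0605), CON replicate 3 (0.0812) or 4H replicate 1 (0.0597) left out, without a trend in limma (0.0552) and after correction for GC content and length (0.0970). Fgf10 fell from 24.2 ± 1.08 to 16.4 ± 0.595 FPKM and Fgf7 from 13.5 ± 1.43 to 9.51 ± 1.47 FPKM. The third lower gene was Fgfr2, at 2.18 ± 0.0470 and 1.54 ± 0.391 FPKM (limma adjusted p = 0.0464), whose call was lost without any 1 of CON replicate 1 (0.0919), CON replicate 2 (0.108), CON replicate 3 (0.104), 4H replicate 2 (0.129) and 4H replicate 3 (0.109), and with no filter (0.0811), a replicate block (0.0657) or TPM (0.0643). Vegfa was at 73.4 ± 2.36 and 75.1 ± 3.02 FPKM and did not pass (limma adjusted p = 0.539).

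Across the series, FPKM summed to 395790 to 397260 in the CON libraries and 385146 to 387516 in the 4H libraries, and since fragment numbers cannot be read from FPKM the depth is unknown. The label of the cells was checked against markers. Of 8 myoblast markers 7 had a mean of at least 0.5 FPKM, and their summed level was 198.0 to 204.3 FPKM in the CON libraries and 284.3 to 298.5 FPKM in the 4H libraries. Pax7, the satellite cell factor, was at 0.452 ± 0.132 and 0.429 ± 0.104 FPKM, below the filter. Markers of differentiated muscle summed to 1.80 to 2.35 and 2.79 to 3.13 FPKM, with 2 of 6 at a mean of at least 0.5 FPKM. These 2, Acta1 and Mymk, were higher in the 4H group, by 0.59 and 0.57 on the log2 scale. The other 4 were below the filter and not tested, and each had a lower mean in the 4H group. Myog had means of 0.217 and 0.0265 FPKM and Myh1 of 0.0531 and 0 FPKM, without overlap between the groups. Those of Ckm and Myh3 overlapped. Markers of other cell types summed to 2.83 to 3.43 and 4.91 to 5.54 FPKM, nearly all of it Pdgfra, and Ptprc, Epcam and Tcf21 were listed at 0 in every library. Of the 7 myoblast markers tested, 5 rose, among them Myod1, the myogenic determination factor and the 1 marker past the fold threshold, from 5.13 ± 0.573 to 18.2 ± 0.738 FPKM (limma adjusted p = 1.56e-06) and Itga7 from 55.9 ± 2.02 to 102.2 ± 4.06 FPKM. Myf5 fell from 15.8 ± 0.851 to 9.82 ± 1.13 FPKM (limma adjusted p = 3.46e-04), and Ncam1 did not pass (limma adjusted p = 0.635). The sum of these markers moved in the same direction as the syndecans, and its part in their rise was not tested.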

How the data were processed

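RNA-seq was analysed from 6 libraries of C2C12 cells, 3 CON and 3 4H, grouped by their labels. Libraries were strand-specific and paired-end from poly(A) RNA, per the labels. The deposited table gives FPKM values that the authors computed for each library, with no pooling of replicates. The submitters' processing notes name the build mm10. Aligner and counter were not given in the sources used here, nor was the annotation or whether counting used strand. Coordinates, coding ends and shared sequence came from GENCODE M21 (GRCm38).

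FPKM is not a count, so no count model was run. limma 3.58.1 in R 4.3.3 (lmFit, eBayes with a trend) was fitted to log2(FPKM + 0.5), two-sided, for 11593 genes whose mean over 6 libraries reached 0.5 FPKM, with Benjamini-Hochberg adjustment. This scale understates changes of low genes. Differential expression needed an adjusted p of at most 0.05 and a log2 fold change of 1 or more in absolute size. The step was tested on simulated data. Tables and plots used Biopython 1.88, matplotlib 3.10.9, SciPy 1.17.1, numpy 2.4.6 and pandas 2.3.3 under Python 3.11.15.

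The members and gene lists were chosen with earlier results of these data known. The naming rule took all 9 members and Gpc5, in each list the differentially expressed genes (up to 4) or else the 2 with the largest change past the test, and the 3 genes most like Sdc4, the member with the largest change at a mean of at least 5 FPKM. Alternatives were pseudocounts of 0.1 and 1, no filter, a filter at 1 FPKM, array weights, limma without a trend, a replicate block, TPM, median-of-ratios scaling, quantile normalization and each library left out. A fit on values cleared of their trend with GC content and length in each library was added after the data were seen.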

Additional observations from a re-analysis of the deposited data

How the results depend on the processing

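The 7 tested syndecans and glypicans kept their direction under all 17 alternatives, and 6 of them their side of the threshold. Gpc6 ranged from -0.35 to -0.23 on the log2 scale with each library left out in turn, and its adjusted p from limma reached 0.0777. No log2 fold change of a member passed 1 in absolute size, as a ratio of mean FPKM either. The number of differentially expressed genes was 450 and moved to 703 with each library rescaled to TPM, which changes both the genes that pass the filter (12457 tested) and the weight of the pseudocount; the cause was not tested. With quantile normalization the share of Gpc1 in the glypican sum of the 4H group was 94.1% in place of 94.0% and that of Gpc4 1.502% in place of 1.58%; the cause was not tested. With the replicate block all 7 members were past the test, and 4964 genes in all, against 5409 without it. Over all genes tested, same-numbered libraries gave no sign of a pairing, since their deviations from the group means correlated at 0.025, -0.093 and -0.126. This cannot exclude a pairing that is weak or affects few genes. The numbers used here are the replicate numbers of the sample descriptions. The titles number the 4H libraries 1, 3 and 4, and the 2 pairs that share a title number correlated at 0.025 and 0.176, too few pairs to take the titles as a pairing. FPKM holds no depth, so no counting error can be given for Gpc4, Mmp3 or other low genes, and a value listed at 0 in Gpc2 and Gpc3 gives no upper limit.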
